A study of Mus musculus with 6 samples.

Results

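The 46 genes described here encode the lysosome's degradative enzymes, its membrane proteins, its proton pump, and the 3 MiT transcription factors Tfeb, Tfe3 and Mitf. They were taken by symbol from RNA-seq tables of the mouse myoblast line C2C12 (strain label C3H). Of the 46 symbols, 43 had a row of their own among 22989 rows. Another 3 stood in rows combined with a second gene and are given apart, uncounted. Each of 3 groups was 1 library of polyadenylated RNA. The control library came from non-starved cells that received the siRNA labelled siNS. The starved library came from cells that received the same siNS and were then held in HBSS, a buffered salt solution without amino acids or serum, for 4 h. The knockdown library came from non-starved cells that received siRNA against Foxk1, a forkhead transcription factor, and has no starved counterpart here. The series text states that expression was compared with the non-starved control after each of the treatments.

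Lysosomes are acidic organelles that break down proteins, sugars, lipids and nucleic acids delivered by endocytosis and autophagy. The V-ATPase acidifies them: its cytosolic V1 sector hydrolyses ATP and drives protons through the membrane-embedded Vo sector. MiT factors bind a palindromic promoter sequence called the CLEAR element, found in many lysosomal genes. When amino acids are plentiful, mTORC1 at the lysosomal surface phosphorylates these factors and keeps them in the cytoplasm. On amino acid withdrawal they enter the nucleus. The activity of the factors is therefore set largely by phosphorylation and location, which RNA levels do not report.

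Values are FPKM, fragments scaled by transcript length and library size, each with the 95% interval that the deposited files give. Because of the length scaling, levels can be set against each other between genes. Because each group had 1 library, no spread between replicates could be measured and no gene was tested. Apart, below, means that the intervals from a pair of libraries share no value, a statement about those libraries rather than about the conditions. It is given only to genes at 1 FPKM or more in either library whose FPKM differs in the same direction. Read depth is unknown. For members at 1 FPKM or more, the limits lay a median 17.4% (control), 18.96% (starved) and 19.1% (knockdown) of FPKM from the interval's middle. That middle is not always the FPKM itself. Control cells had Foxk1 transcript at 9.09 FPKM (7.76 to 10.4), starved cells at 16.1 FPKM (13.3 to 18.9) and knockdown cells at 5.15 FPKM (4.29 to 6.02). The knockdown library thus kept 56.7% of the control's Foxk1 transcript. In bulk RNA, fewer cells of a type and less RNA per cell cannot be told apart.

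Starvation was accompanied by higher levels across much of this gene set. Of 41 members at 1 FPKM or more in either library, 14 had a higher interval apart from the control's and 0 a lower one. Over all 11396 rows that passed the same filter, the shares were 12.2% higher apart and 10.9% lower apart. The 14 were the protease genes Ctsf and Tpp1, the glycosidase genes Hexa, Gaa, Gla and Neu1, the cholesterol exporter gene Npc1, the membrane protein gene Lamp2, and 6 genes of the proton pump. Differences were moderate in size. On the scale of log2((FPKM + 1)/(control FPKM + 1)), the median of the 41 was 0.43, against -0.01 over all rows, and 35 of the 41 lay above 0. No member reached 2-fold on that scale in either direction, a size that 3.12% of all rows reached upward and 3% downward. The pseudocount of 1 understates the change of low genes.

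In the Foxk1 knockdown library, 5 of the 41 members lay higher apart and 0 lower. Over all 11357 rows the shares were 8.89% higher apart and 7.13% lower apart, and the members' count of higher genes is near that background. The 5 were Ctsf, Ctso, Hexa, Npc2 and Atp6v1b2. The median log2 fold change was -0.00098 (all rows 0.02), with 20 members above 0 and 21 below. Ctsf and Ctso were at least 2-fold higher on the log2 scale. Of all rows, 2.61% reached that size upward and 1.45% downward. Both comparisons share the control library, so values are set side by side and no overlap between them is read as a result. Ctsf, Hexa and Atp6v1b2 were higher apart in both, and the other 11 of the 14 overlapped the control in the knockdown library.

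**Figure D1:**
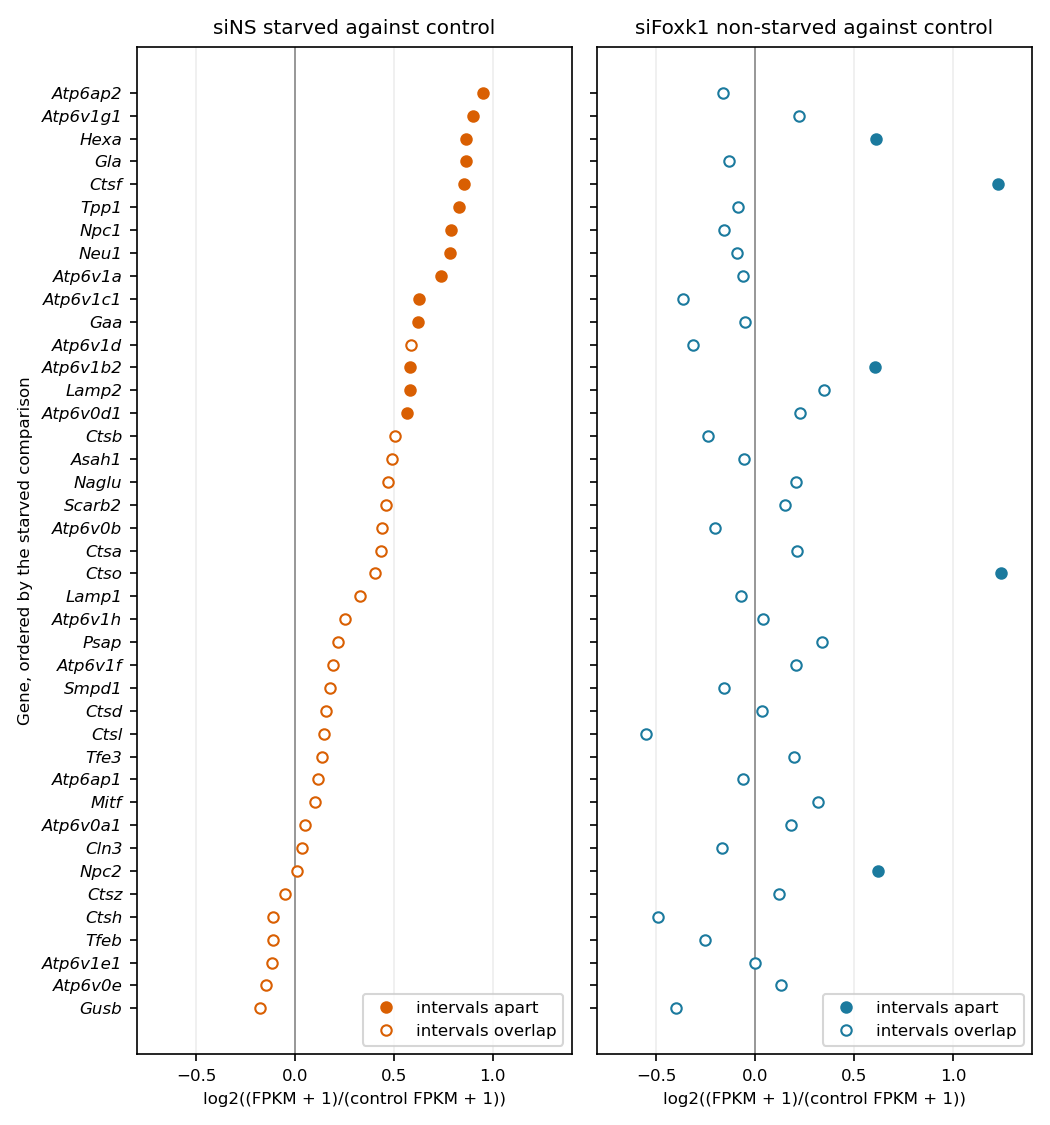
Log2 fold change of the 41 members at 1 FPKM or more, starved (left) and Foxk1 knockdown (right) against the control library, in the order of the starved comparison. Each point is 1 gene in 1 pair of libraries, filled where the 95% intervals do not overlap. On the left 35 points lie above 0, and on the right 20 do, with Ctso and Ctsf farthest to the right.

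As a group the 43 members made up 0.479% of all FPKM for the control, 0.655% for the starved and 0.508% for the knockdown library. The sum over all rows was itself lowest in the starved library, at 566803 (control), 527673 (starved) and 562498 (knockdown). The members summed to 2715 (control), 3455 (starved) and 2860 FPKM (knockdown). Their median level was 33.6, 49.5 and 36.3 FPKM, in that order of libraries. The levels spanned more than 3 orders of magnitude, from Ctss and Ctsk, under 1 FPKM in all 3 libraries, to Psap and Lamp1, the highest members in each library.

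The MiT factors did not differ apart in either comparison. Tfe3 was the most abundant of the family, at 28.4 FPKM (23.3 to 33.9) in control cells, 31.4 FPKM (25.5 to 37.2) after starvation and 32.7 FPKM (26.2 to 39.3) after knockdown. Tfeb stood at 4.42 FPKM (3.11 to 5.75) in control cells, 4.01 FPKM (2.81 to 4.85) after starvation and 3.55 FPKM (2.52 to 4.63) after knockdown. Mitf, best known from melanocytes and osteoclasts, stood at 1.72 FPKM (1.38 to 2.07) in control cells, 1.93 FPKM (1.43 to 2.45) after starvation and 2.39 FPKM (1.901 to 2.87) after knockdown. All the intervals of each factor overlapped across the 3 libraries, with log2 fold changes from -0.25 (Tfeb, knockdown) to 0.31 (Mitf, knockdown). Tfec, the remaining paralog, was listed at 0 in every library.

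The promoters of the members were searched for the sequence that MiT factors bind and for a forkhead motif. RefSeq promoters (GRCm38.p6, 250 bases before to 50 after the start) were matched by symbol for 38 of the 46 members. Those not matched were Ctsb, Ctsh, Asah1, Npc1, Atp6v1b2, Atp6v1c1, Atp6v1g1 and Atp6v1h. The core of the CLEAR element, TCACGTGA, which reads the same on both strands, was present in 8 of the 38 (21.1%) and in 1.12% of all 27025 genes with a promoter of that length. CACGTG, the E-box inside this core, was present in 15 of the 38 (39.5%) and in 8.09% of all genes. The CLEAR element is already known from many lysosomal genes, so a higher share among the members is not independent evidence about this set. All genes here include those not expressed in these cells. GTAAACA, a forkhead motif, was searched on both strands and was found in 0 of the 38 members and in 4.05% of all genes. With 38 members, a count of 0 is near that share. A match is a run of letters and not a measured binding site, and the absence of a match says only that these letters are not in the window.

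Of the 14 members higher apart after starvation, 10 had a promoter in the table and 3 of those, Atp6v0d1, Atp6v1a and Gla, held the core. Of the 29 others with their own row, 25 had a promoter and 4 held it: Atp6v0e, Cln3, Ctsa and Ctsd. Mcoln1, in a combined row, is the eighth. The stretches around the core are printed so that members called apart can be read beside members that were not. Those of Atp6v0d1, Atp6v1a and Gla were named by rule, and the others were added after their values were seen. Capitals mark the core, and each sequence runs 5′ to 3′ on the gene's strand.
Gla, chrX:134601168-134601255, minus strand: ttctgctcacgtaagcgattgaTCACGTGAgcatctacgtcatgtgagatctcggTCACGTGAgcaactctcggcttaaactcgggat
Atp6v1a, chr16:44139359-44139416, minus strand: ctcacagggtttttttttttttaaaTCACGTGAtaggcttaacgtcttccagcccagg
Atp6v0d1, chr8:105566050-105566079, minus strand: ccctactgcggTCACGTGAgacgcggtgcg
Ctsa, chr2:164833758-164833787, plus strand: tgTCACGTGAtgcagatgcTCACGTGAcca
Ctsd, chr7:142387894-142387951, minus strand: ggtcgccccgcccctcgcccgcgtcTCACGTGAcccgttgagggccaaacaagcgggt
Cln3, chr7:126583326-126583383, minus strand: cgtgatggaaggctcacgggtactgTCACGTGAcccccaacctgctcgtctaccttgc
Atp6v0e, chr17:26676387-26676416, plus strand: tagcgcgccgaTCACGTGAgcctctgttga
Mcoln1, chr8:3500448-3500505, plus strand: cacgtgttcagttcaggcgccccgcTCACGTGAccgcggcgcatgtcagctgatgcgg
Gla and Ctsa each carried 2 copies. The farther copy of Gla began 228 bases before the start and the nearer 195 bases before it. Ctsa had its copies close to the start, the upstream copy beginning 13 bases before it. In Atp6v0d1 the core began 4 bases before the start, in Mcoln1 46, in Ctsd 99, in Cln3 122 and in Atp6v1a 132 bases before it. Members with a core and a row of their own differed among themselves after starvation. The log2 fold change was 0.86 for Gla, 0.74 for Atp6v1a, 0.56 for Atp6v0d1, 0.43 for Ctsa and 0.16 for Ctsd. It was 0.04 for Cln3 and -0.15 for Atp6v0e. The core of Atp6v0e began 2 bases after the start. The deposited FPKM of Atp6v0e lay above its own upper limit in every library. Lamp1 lacked the core and held 4 E-boxes within 61 bases of its start, the most among the 38 members with a promoter, here with the E-boxes in capitals.
Lamp1, chr8:13159075-13159160, plus strand: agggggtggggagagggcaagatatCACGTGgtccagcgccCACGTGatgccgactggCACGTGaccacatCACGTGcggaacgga

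Among the lysosomal proteases, Ctsf and Tpp1 were higher apart in the starved library. Ctsf, which encodes the cysteine protease cathepsin F, stood at 1.48 FPKM (1.06 to 1.88) in control cells, 3.49 FPKM (2.66 to 4.28) after starvation and 4.800 FPKM (3.68 to 5.895) after knockdown. The starved library was 2.36 times and the knockdown library 3.25 times the control, both apart. Tpp1, the tripeptidyl peptidase deficient in a childhood form of neuronal ceroid lipofuscinosis, stood at 22.3 FPKM (17.5 to 25.2) in control cells, 40.5 FPKM (30.7 to 45.6) after starvation and 20.9 FPKM (16.3 to 24.4) after knockdown. It was 1.81 times the control after starvation and overlapped the control in the knockdown library. Ctso, which encodes cathepsin O, differed in the other comparison. It stood at 2.03 FPKM (1.36 to 2.35) in control cells, 3.01 FPKM (1.95 to 3.42) after starvation and 6.19 FPKM (4.35 to 7.24) after knockdown, 3.04 times the control in the knockdown library, and its starved interval overlapped the control's. Ctsf and Ctso are low-abundance members, ranked 41st and 38th of 43 in the control.

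The abundant cathepsins overlapped the control in both comparisons. Ctsl, the endopeptidase cathepsin L, stood at 246 FPKM (186 to 267) in control cells, 273 FPKM (199 to 298) after starvation and 168 FPKM (125 to 186) after knockdown. Its log2 fold change in the knockdown library was -0.55. The upper limit in the knockdown library and the lower limit in the control lay within 1 FPKM of each other. Ctsd, the aspartic protease cathepsin D, stood at 213 FPKM (172 to 246) in control cells, 238 FPKM (191 to 285) after starvation and 219 FPKM (174 to 259.9) after knockdown. Ctsb, which encodes cathepsin B, stood at 102 FPKM (83.3 to 119) in control cells, 144 FPKM (116 to 171) after starvation and 85.8 FPKM (69.3 to 102) after knockdown, 1.42 times the control after starvation with intervals overlapping narrowly. Ctsz, a carboxypeptidase, was at 88.03 (control), 84.8 (starved) and 95.7 FPKM (knockdown). Cathepsin A, encoded by Ctsa, both a carboxypeptidase and a stabiliser of the sialidase Neu1 and of beta-galactosidase, was at 36.4 FPKM (30.2 to 42.6) in control cells, 49.5 FPKM (40.2 to 58.8) after starvation and 42.3 FPKM (34.4 to 50.2) after knockdown. Its starved value was 1.36 times the control, with overlapping intervals. Ctsh, an aminopeptidase, was at 5.47 (control), 4.99 (starved) and 3.605 FPKM (knockdown), lowest in the knockdown library without being apart. Ctsk, the collagen-degrading protease of osteoclasts, was at 0.0843 (control), 0.0885 (starved) and 0.0475 FPKM (knockdown). Ctss, a protease of antigen-presenting cells, was at 0.07400 (control), 0.0728 (starved) and 0.227 FPKM (knockdown). These last genes never reached 1 FPKM and entered no count.

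Of 6 glycosidase genes, 4 were higher apart after starvation, against 12.2% of all rows. The median log2 fold change was 0.70, against -0.01 over all rows. Hexa, the alpha subunit of beta-hexosaminidase whose loss causes Tay-Sachs disease, stood at 37.6 FPKM (29.6 to 42.7) in control cells, 69.3 FPKM (53.8 to 80.2) after starvation and 57.9 FPKM (44.9 to 67.1) after knockdown. It was 1.84 times the control after starvation and 1.54 times after knockdown. Gla, the alpha-galactosidase deficient in Fabry disease, stood at 5.28 FPKM (4.13 to 6.26) in control cells, 10.4 FPKM (8.097 to 12.3) after starvation and 4.73 FPKM (3.63 to 5.71) after knockdown. Its starved value was 1.97 times the control, while the knockdown value lay just under the control with overlapping intervals. Gaa, which digests lysosomal glycogen and is deficient in Pompe disease, stood at 17.9 FPKM (14.5 to 21.4) in control cells, 28.2 FPKM (22.8 to 33.4) after starvation and 17.3 FPKM (13.7 to 20.9) after knockdown. Neu1, the lysosomal sialidase, stood at 4.14 FPKM (3.44 to 4.85) in control cells, 7.87 FPKM (6.56 to 9.16) after starvation and 3.83 FPKM (3.12 to 4.54) after knockdown. In both genes the starved interval lay above those of the other libraries, at 1.57 times the control for Gaa and 1.899 times for Neu1. Naglu, an enzyme of heparan sulfate breakdown, was at 9.32 FPKM (7.595 to 10.9) in control cells, 13.3 FPKM (10.7 to 15.9) after starvation and 10.9 FPKM (8.75 to 13.01) after knockdown, with starved and control intervals overlapping. Gusb, the beta-glucuronidase often used as a reference gene, was lowest in the knockdown library, at 32.02 FPKM (26.4 to 37.7) in control cells, 28.2 FPKM (23.1 to 33.3) after starvation and 24.00 FPKM (19.6 to 28.4) after knockdown, and overlapped the control in both comparisons. In the knockdown comparison the glycosidase median was -0.07, and Hexa alone of the 6 was apart. Of all rows, 8.89% were higher apart and 7.13% lower apart there.

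Among genes of lipid breakdown, Npc1 and Npc2 differed in different libraries. Their products hand cholesterol to each other, Npc2 in the lysosomal lumen and Npc1 in the membrane. Npc1 stood at 12.02 FPKM (9.801 to 14.2) in control cells, 21.5 FPKM (16.6 to 26.7) after starvation and 10.7 FPKM (8.63 to 12.7) after knockdown. It was 1.79 times the control after starvation and overlapped it after knockdown. Npc2 stood at 91.9 FPKM (75.02 to 107) in control cells, 92.5 FPKM (73.7 to 109.9) after starvation and 142 FPKM (113 to 169) after knockdown. The starved value of Npc2 was within 1% of the control, and the knockdown value was 1.54 times the control with intervals apart. Psap, the precursor of the saposins that activate sphingolipid hydrolases, was the most abundant member, at 396 FPKM (340.5 to 452) in control cells, 460.1 FPKM (387 to 533) after starvation and 500.3 FPKM (419.9 to 581) after knockdown. Asah1, acid ceramidase, stood at 42.5 FPKM (31.1 to 44.8) in control cells, 60.01 FPKM (41.6 to 62.04) after starvation and 40.9 FPKM (29.5 to 44.2) after knockdown, 1.41 times the control after starvation. Smpd1, acid sphingomyelinase, was at 16.99 (control), 19.4 (starved) and 15.1 FPKM (knockdown). These last 3 overlapped the control in both comparisons.

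Of the membrane proteins, only Lamp2 was called apart among the 4 with rows of their own, and only in the starved comparison. In that comparison 12.2% of all rows were higher apart and 10.9% lower apart. Lamp2, a heavily glycosylated membrane protein needed for autophagosome fusion and chaperone-mediated autophagy, stood at 90.1 FPKM (69.7 to 106) in control cells, 135 FPKM (113 to 183) after starvation and 115 FPKM (87.4 to 141) after knockdown. Its starved value was 1.5 times the control. Lamp1, its more abundant relative, stood at 289 FPKM (231 to 331) in control cells, 364 FPKM (285 to 427) after starvation and 275 FPKM (217 to 325) after knockdown, with overlapping intervals throughout. Scarb2, which carries beta-glucocerebrosidase to the lysosome, was at 32.7 FPKM (27.1 to 38.3) in control cells, 45.3 FPKM (36.1 to 54.6) after starvation and 36.3 FPKM (29.6 to 43.1) after knockdown. The starved and control intervals of Scarb2 overlapped by little. Cln3, mutated in juvenile neuronal ceroid lipofuscinosis, was at 1.99 (control), 2.07 (starved) and 1.67 FPKM (knockdown) and overlapped in both.

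The members in combined rows were not called apart. Mcoln1, the calcium channel TRPML1 that responds to starvation, shares with Pnpla6 a row that stood at 22.2 FPKM (18.1 to 26.3) in control cells, 29.9 FPKM (23.5 to 36.3) after starvation and 18.9 FPKM (15.3 to 22.6) after knockdown. Glb1, the beta-galactosidase, shares a row with Tmppe, at 18.5 FPKM (15.4 to 21.6) in control cells, 19.04 FPKM (15.8 to 22.3) after starvation and 21.1 FPKM (17.1 to 25.1) after knockdown. Atp6v0c, the proton-carrying ring subunit of Vo, shares a row with its pseudogene Atp6v0c-ps2, at 232 FPKM (196 to 269) in control cells, 255 FPKM (201 to 316) after starvation and 203 FPKM (169.5 to 237) after knockdown. How much of each row belongs to the named member cannot be told from these values.

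**Figure D2:**
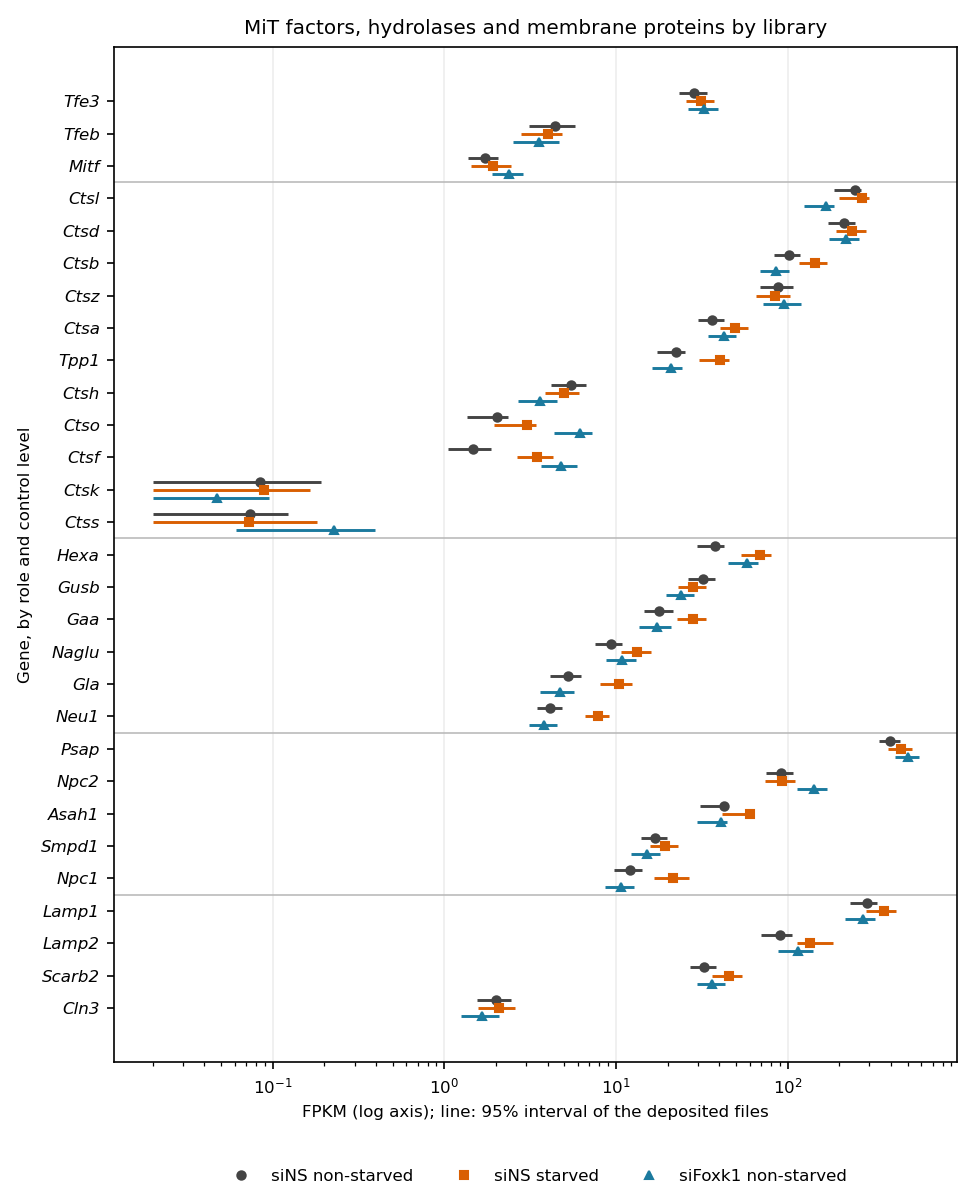
FPKM of the MiT factors, proteases, glycosidases, lipid genes and membrane proteins (panels from top to bottom, split by grey lines) in the 3 libraries, on a log axis. Points are the deposited values of 1 library each and lines the deposited 95% intervals, drawn from 0.02 FPKM where the lower limit is less. The starved points of Hexa, Gla, Gaa, Neu1, Tpp1 and Npc1 stand to the right of the control, and those of the MiT factors lie on top of it.

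Genes of the proton pump were higher apart in the starved library in both sectors and among the accessory proteins. Of 14 pump genes with their own row, 6 lay higher apart and 0 lower, and the median log2 fold change was 0.50, where 12.2% of all rows were higher apart. In V1, 4 of 8 were higher apart (median 0.58), and in Vo 1 of 4 (median 0.25). In the knockdown comparison 1 of the 14 was higher apart, near the 8.89% of all rows, and the median was 0.02.

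In V1, the catalytic A subunit gene Atp6v1a stood at 32.1 FPKM (24.8 to 35.6) in control cells, 54.2 FPKM (39.9 to 59.5) after starvation and 30.7 FPKM (23.4 to 34.9) after knockdown. Atp6v1b2, which encodes the nucleotide-binding B subunit, stood at 24.6 FPKM (21.02 to 28.2) in control cells, 37.3 FPKM (30.1 to 44.7) after starvation and 38.03 FPKM (32.1 to 43.97) after knockdown. Both were higher apart after starvation, at 1.69 and 1.52 times the control. They parted in the knockdown library, where Atp6v1b2 was 1.54 times the control and apart and Atp6v1a was 0.956 times and overlapped. Atp6v1c1, the C subunit that comes off when V1 and Vo separate, stood at 46.8 FPKM (34.5 to 49.7) in control cells, 72.8 FPKM (51.3 to 76.4) after starvation and 36.1 FPKM (26.3 to 39.4) after knockdown. Atp6v1g1, a subunit of the peripheral stalk, was the most abundant pump gene with its own row, at 184 FPKM (134 to 191) in control cells, 345 FPKM (246 to 368) after starvation and 215 FPKM (152 to 226) after knockdown. Its starved value was 1.87 times the control and that of Atp6v1c1 1.56 times.

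The other V1 genes overlapped the control. Atp6v1d, of the central rotor, stood at 49.03 FPKM (32.7 to 65.1) in control cells, 74.05 FPKM (51.9 to 95.5) after starvation and 39.2 FPKM (25.2 to 52.9) after knockdown, and at 1.51 times the control its fold after starvation was close to that of Atp6v1b2, but its intervals were wide. Atp6v1e1, a stalk subunit paired with G, was at 71.9 (control), 66.2 (starved) and 71.9 FPKM (knockdown). Atp6v1f, also of the rotor, was at 64.2 (control), 73.6 (starved) and 74.3 FPKM (knockdown). Atp6v1h, the regulatory H subunit, was at 36.2 (control), 43.3 (starved) and 37.2 FPKM (knockdown). Of the stalk partners, Atp6v1g1 was thus higher apart after starvation, while Atp6v1e1 overlapped the control, with a log2 fold change of -0.12. Summed over V1, FPKM came to 509 (control), 767 (starved) and 543 (knockdown). Without Atp6v1g1 the starved sum was 1.30 times the control, and with it 1.51 times.

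In the Vo sector, Atp6v0d1, the subunit that joins the rotor to the membrane ring, stood at 43.9 FPKM (33.5 to 48.4) in control cells, 65.4 FPKM (48.7 to 72.9) after starvation and 51.5 FPKM (38.8 to 58.2) after knockdown. Its intervals in the starved and control libraries were apart by 0.378 FPKM, the narrowest gap of the 14 called members. Atp6v0a1, an isoform of the large membrane subunit, was at 13.6 FPKM (11.6 to 15.7) in control cells, 14.2 FPKM (11.9 to 16.5) after starvation and 15.6 FPKM (13.05 to 18.1) after knockdown, with near-identical starved and control values. Atp6v0b, a ring subunit, was at 84.97 (control), 116 (starved) and 73.5 FPKM (knockdown). Atp6v0e, a small membrane subunit, was at 130.1 (control), 117 (starved) and 142 FPKM (knockdown). Both overlapped the control in each comparison.

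Of the accessory proteins, Atp6ap2, the (pro)renin receptor that takes part in pump assembly, had a log2 fold change of 0.95 after starvation. It stood at 33.6 FPKM (22.8 to 32.9) in control cells, 65.8 FPKM (40.9 to 61.05) after starvation and 29.9 FPKM (20.04 to 30.2) after knockdown. Atp6ap1, which also assists assembly, was at 67.2 (control), 72.8 (starved) and 64.3 FPKM (knockdown), overlapping in both comparisons. For Atp6ap2 and Atp6v0b in the control and starved libraries, Atp6v1f in the control, and Atp6v0e in all 3, the deposited mean lies above the upper limit of its own interval. A call rests on the limits, with the filter and the order of the deposited values as further conditions. Without these 4 genes, 13 of 37 members were higher apart in the starved comparison.

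**Figure D3:**
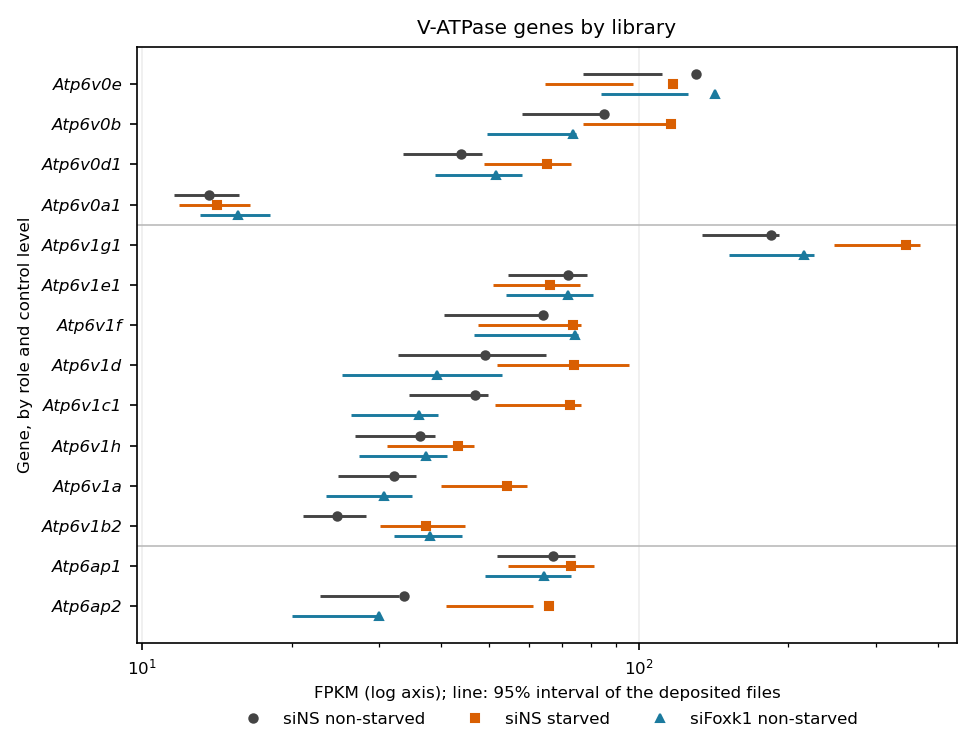
FPKM of the 14 V-ATPase genes with rows of their own, by Vo, V1 and accessory proteins from top to bottom, in the 3 libraries on a log axis. Points are deposited values and lines deposited 95% intervals. The starved intervals of Atp6v1g1, Atp6v1a, Atp6v1c1 and Atp6ap2 lie to the right of both other libraries, and the points of Atp6v0e fall outside their own lines.

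Further genes were read from 5 lists separate from the 46, of lysosomal genes and of MiT regulators and linked genes. Like the 46, these lists were chosen with earlier results of these data known. The shares over all rows in the starved comparison were 12.2% higher apart and 10.9% lower apart, with 48.7% above 0. Of 23 other hydrolases and activators, 7 lay higher apart and 0 lower, and the median log2 fold change was 0.32. Among them were Galc (1.29), which degrades galactosylceramide, the nuclease gene Dnase2a (1.16) and Idua (0.93), the iduronidase of glycosaminoglycan breakdown. Of 18 other membrane proteins, 7 lay higher apart and 0 lower (median 0.25). They were led by the cystine exporter gene Ctns (1.49), the chloride transporter gene Clcn7 (0.91), Laptm4b (0.72) and the sialic acid exporter gene Slc17a5 (0.70). Sorting and maturation genes, which bring enzymes to the lysosome, had 2 of 11 higher apart and 0 lower apart, near the shares over all rows. The 2 were the mannose 6-phosphate receptor gene Igf2r (0.71) and the adaptor gene Gga2 (0.53).

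Regulators of the MiT factors and further genes linked to them had 7 of 17 higher apart and 0 lower apart after starvation. The highest were Fnip1 (1.95) and Gpnmb (1.92), a melanosomal and lysosomal glycoprotein, followed by the autophagy receptor gene Sqstm1 (1.83) and Uvrag (1.504), of the autophagy PI3-kinase complex. Gpnmb was under 1 FPKM in the control and entered through the starved library alone, so it had to be higher. Fnip1, Sqstm1 and Uvrag each exceeded every one of the 41 counted members in log2 fold change. In the knockdown comparison all 16 overlapped the control, where 8.89% of all rows were higher apart and 7.13% lower apart. The median was -0.12, and 4 of the 16 lay above 0, against 52.1% of all rows. Gpnmb was under 1 FPKM in both libraries there and was not counted. It stood at 0.547 FPKM (0.391 to 0.698) in control cells and 0.0914 FPKM (0.0369 to 0.148) after knockdown. Those intervals share no value.

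Other pump and assembly genes had 1 of 11 higher apart in the starved comparison and 1 lower apart, near the 12.2% and 10.9% of all rows. The higher gene was Wdr7 (0.79), which works with the assembly factors Dmxl1 and Dmxl2, and the lower was Atp6v0a2 (-0.72). Atp6v0a2 encodes another isoform of the large Vo subunit, the form known from the Golgi. It stood at 15.7 FPKM (13.3 to 18.2) in control cells, 9.14 FPKM (7.45 to 10.8) after starvation and 24.96 FPKM (20.7 to 29.2) after knockdown. Its direction was opposite in the 2 comparisons, lower apart after starvation and higher apart after knockdown. The isoform Tcirg1 was at 22.9 (control), 30.5 (starved) and 18.6 FPKM (knockdown) and overlapped in both. Subunit isoforms known from kidney and other specialised tissues were near 0: Atp6v1b1, Atp6v1c2, Atp6v1e2, Atp6v1g3 and Atp6v0d2 were under 1 FPKM in every library.

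In the knockdown library the counts in these lists were near or under the shares over all rows, 8.89% higher apart and 7.13% lower apart. Other hydrolases had 2 of 23 higher apart, Pla2g15 (0.61), a lysosomal phospholipase, and Idua (0.44), and 1 lower apart, Galc (-0.95). Their median was 0.15, and 20 of the 23 lay above 0, against 52.1% of all rows. Galc stood at 10.04 FPKM (7.74 to 12.1) in control cells, 26.1 FPKM (19.1 to 28.6) after starvation and 4.71 FPKM (3.51 to 5.64) after knockdown, higher apart after starvation and lower apart after knockdown. Other membrane proteins had 1 of 17 higher apart, Slc17a5 (0.48), and 1 lower apart, the ion channel gene Tpcn1 (-0.43). Of these 17, 4 lay above 0, against the same 52.1% of all rows. Sorting genes had 0 higher apart and 1 lower apart, the sorting receptor gene Sort1 (-0.35). Sort1 fell under 1 FPKM after knockdown and entered through the control library alone, so it could only be lower. The gap between its intervals was 0.086 FPKM.

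**Figure D4:**
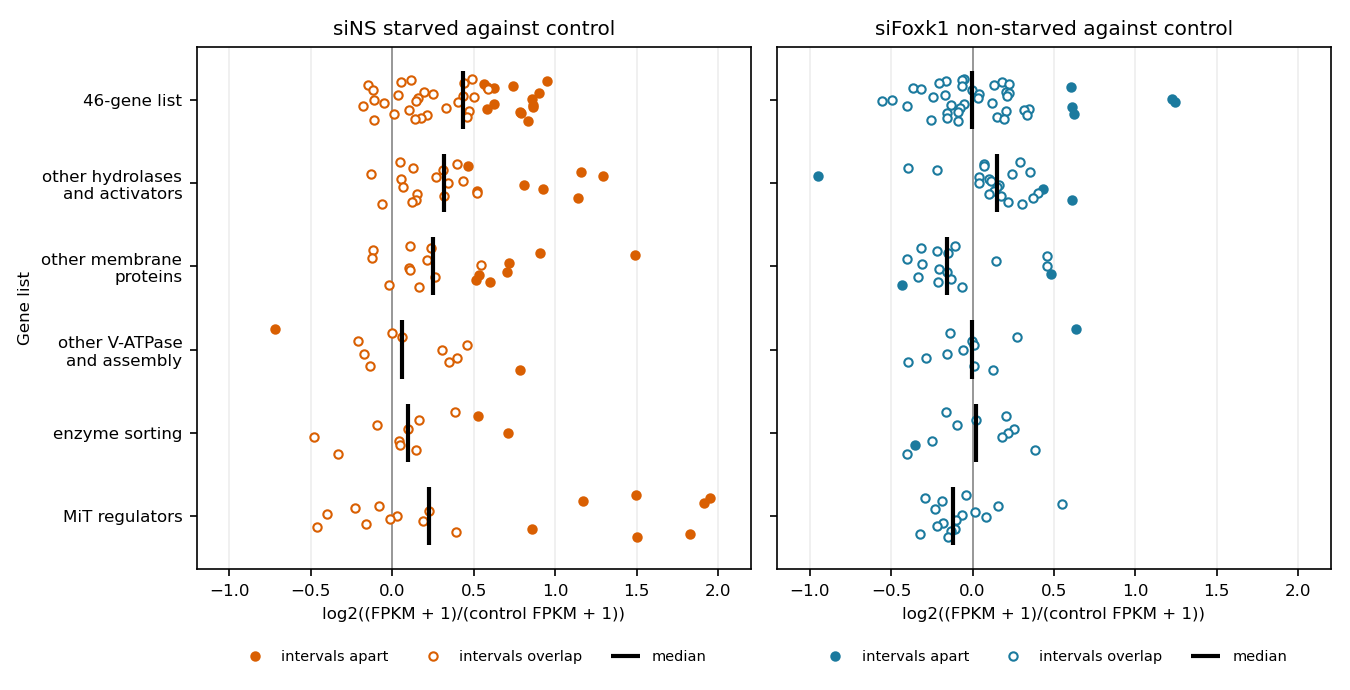
Log2 fold change of the listed genes in the starved (left) and Foxk1 knockdown (right) libraries against the control. Shown are the 46-gene list and 5 further lists, of lysosomal genes and of MiT regulators and linked genes. Each point is a gene at 1 FPKM or more in 1 of the 2 libraries, filled where intervals are apart, and the black bar is the list median. On the left the bars run from 0.06 to 0.43, with the highest points among the MiT regulators, and on the right from -0.16 to 0.15.

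Markers were read beside these results, since lysosomal genes are abundant in phagocytes and osteoclasts. Of 9 macrophage markers, Cd68 and Cd14 reached 1 FPKM and the rest did not in any library, with Adgre1 listed at 0 in all 3 and Ptprc and Csf1r under 0.1 FPKM. The summed level of the 9 was 11.2 FPKM (control), 15.5 FPKM (starved) and 8.49 FPKM (knockdown). All 6 osteoclast markers were under 1 FPKM throughout, summing to 0.274, 0.228 and 0.538 FPKM, with Calcr and Dcstamp at 0 in each. Of 5 adipocyte markers, Pparg and Lpl reached 1 FPKM, the sum was 15.8, 15.4 and 21.7 FPKM, and Plin1 was at 0 in each. Lpl was higher apart in the knockdown library (0.75), the only marker at 1 FPKM or more of the macrophage, osteoclast and adipocyte lists that was apart in either comparison. All 7 myoblast markers were at 5 FPKM or more in each library, summing to 804, 709.9 and 857 FPKM. Regulators of muscle differentiation differed between libraries: Myod1 was lower apart after starvation (-2.60), Myf5 was higher apart after starvation (0.78), and Myog was lower apart after starvation (-1.11) and higher apart after knockdown (1.61). Whether these differences bear on the lysosomal genes was not tested.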

How the data were processed

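Polyadenylated RNA was sequenced from 3 libraries of C2C12 myoblasts, 1 per group, with groups taken from the sample titles. The deposited tables give FPKM with lower and upper 95% limits, per the file headers. Per the submitters' processing notes, the build was mm9 and the tools were Cuffdiff, Cufflinks 2.1.1, TopHat2 2.0.9 and Bowtie2 2.1.0, without stated roles. The annotation, interval method and pooling, if any, were not stated there or in the file headers. Fragment counts are not in these tables, so depth is unknown. Zzz3, whose upper limit lay under its lower limit, was dropped, leaving 22988 rows. A comparison took the rows that reached 1 FPKM in either library. The pseudocount was 1, without rescaling. No test was possible with 1 library per group. The median log2 fold change over all rows was -0.01 (starved) and 0.02 (knockdown). The Foxk1 and Sin3A region lists, in mm9 without gene annotation here, were not used. All 46 members are named by rule, with up to 4 genes apart per further list. A gene that this rule selects is not reported here. Members and lists were chosen with earlier results of these data known. Adgre1 was matched under an older symbol through RefSeq, and Wipi1, with several rows, and Atp6v0a4, in a combined row, were left out. Alternatives covered the filter, pseudocount, scaling and call rule. Scripts were tested on simulated data (Python 3.11.15, numpy 2.4.6, pandas 2.3.3, matplotlib 3.10.9).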

Additional observations from a re-analysis of the deposited data

How the results depend on the processing

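The count of 14 members higher apart in the starved comparison was 13 with a filter at 5 FPKM and 13 with a 1.5-fold minimum added. It was 16 with libraries scaled to equal upper quartiles and 18 with equal sums of FPKM, where 13.6% and 15.6% of all rows were higher apart. Equal sums raised the starved library by 0.10 on the log2 scale and moved the members' median from 0.43 to 0.53, beside 0.08 over all rows. With 2-fold on the log2(FPKM + 1) scale in place of the intervals, 0 members were higher after starvation and 2 after knockdown. By the plain ratio Ctsf was 2.36 times the control after starvation. Ctsl was lower apart after knockdown with equal upper quartiles, which made the count of lower members 1. The count of 5 higher after knockdown was between 4 and 5 under the other alternatives. A pseudocount alters the size of a log2 fold change and cannot reverse it. With a pseudocount of 5, Ctsf fell from 0.86 to 0.39 and Neu1 from 0.79 to 0.49 in the starved comparison. In the knockdown comparison Ctsf fell from 1.23 to 0.60 and Ctso from 1.25 to 0.67. With a pseudocount of 0.1, Ctsf rose to 1.64 in the knockdown comparison. Equal sums shifted log2 values by about 0.10 (starved) and 0.01 (knockdown), too little to reverse any called member. Leaving out members with means outside their limits, and adding the combined rows, were chosen after seeing the data and moved no count by more than 1. No paired analysis was possible because each group has 1 library and no result comes from a test. Each value rests on 1 library, and the precision shown is that of the deposited intervals only.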
